A study of Mus musculus with 4 samples.

Results

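The T and NK cell marker genes are 34 genes, listed by symbol, that mark T lymphocytes and natural killer (NK) cells. The list was drawn up with earlier results of these data known. They were read in 4 samples of endometriotic lesions of mice. Such lesions are deposits of endometrium-like tissue that grow outside the womb. RNA from 2 samples of mice given a high-fat diet (replicates HFD-1 and HFD-2) and 2 of mice given a casein diet (CAS-1 and CAS-2), which the labels call the control, was hybridised to 1 array each. The labels give no strain, age, genotype, duration of feeding or number of animals or lesions per array, and the series title describes the mice as immunocompetent. A gene was read by the probe sets annotated to its symbol alone, and the brightest one was used. By that rule 31 of the 34 genes had a probe set, out of 18193 genes on the array. No probe set in the annotation used here carried the symbol of Lck, the kinase that starts T cell receptor signalling, or of Tcf7, a transcription factor of naive and memory T cells. Klrb1c, the NK1.1 antigen, had only a probe set shared with Klrb1b. Of the 31 genes, 30 reached the intensity filter of 33.9 and entered the test with 12797 genes in all, and Foxp3, the transcription factor of regulatory T cells, did not.

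T cells recognise peptides held by MHC molecules through a receptor whose signal is carried by the CD3 chains, and the coreceptors CD4 and CD8 divide them into helper and cytotoxic cells. The kinases Lck and Zap70 and the adaptor Lat pass that signal into the cell. NK cells carry no rearranged antigen receptor and read stress ligands and MHC class I through receptors such as NKp46, encoded by Ncr1, and NKG2D, encoded by Klrk1. Both cell types occur in the endometrium and in endometriotic lesions, where killing by NK cells is widely held to be reduced. Several of these genes are not limited to lymphocytes. Thy1 is also expressed by fibroblasts and nerve, Gata3 by epithelia, Itgae by some dendritic cells, and Il7r by innate lymphoid cells.

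The promoters of Cd3d, Cd8a and Nkg7 are shown as examples of a CD3 chain, of the coreceptor with the largest difference and of a granule gene. Each is the stretch of 250 bases before the RefSeq start site (GRCm38.p6), 5′ to 3′ on the gene's strand, at chr9:44981536-44981785 (plus strand), chr6:71373177-71373426 (plus strand) and chr7:43436888-43437137 (plus strand). Capitals mark the core words of 2 families of lymphocyte transcription factors on either strand, AGGAAG for ETS factors and TGTGGT or TGCGGT for RUNX factors, and no ETS word overlapped a RUNX word.
Cd3d: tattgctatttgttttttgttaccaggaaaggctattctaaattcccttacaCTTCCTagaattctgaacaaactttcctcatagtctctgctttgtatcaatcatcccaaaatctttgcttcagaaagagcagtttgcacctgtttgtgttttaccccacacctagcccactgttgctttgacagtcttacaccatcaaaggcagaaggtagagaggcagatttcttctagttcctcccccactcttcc
Cd8a: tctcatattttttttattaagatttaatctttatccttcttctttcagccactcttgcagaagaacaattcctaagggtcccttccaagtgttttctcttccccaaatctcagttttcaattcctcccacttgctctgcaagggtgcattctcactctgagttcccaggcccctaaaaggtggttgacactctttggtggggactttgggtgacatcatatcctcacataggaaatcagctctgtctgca
Nkg7: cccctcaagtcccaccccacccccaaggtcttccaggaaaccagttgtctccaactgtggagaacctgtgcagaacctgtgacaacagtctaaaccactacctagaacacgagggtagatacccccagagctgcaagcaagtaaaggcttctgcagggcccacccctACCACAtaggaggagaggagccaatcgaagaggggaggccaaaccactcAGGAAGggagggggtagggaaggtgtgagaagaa
The Cd3d window held 1 ETS word, the Nkg7 window 1 ETS and 1 RUNX word, and the Cd8a window neither. Of 23 marker genes with a window in the RefSeq table, 14 held the ETS word and 8 a RUNX word in at least 1 window, against 32.3% and 20.9% of all 27025 genes with one. These are matches of letters and were not tied to the arrays.

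Most T and NK cell markers had smaller values on the high-fat diet, but no single gene passed the test. Of the 30 tested genes, 27 had a negative difference (high-fat diet minus casein diet, log2), where 51.4% of all tested genes did, and their median was -0.39, where that of all tested genes was -0.01. Both high-fat diet arrays lay below both casein diet arrays for 16 of the 30 genes (19.3% of all tested genes did), and above them for 1 (16.6%). In limma's test with Benjamini-Hochberg adjustment over 12797 genes, 0 of 30 genes passed at 0.05, as did 0% of all tested genes, and the members' adjusted p ran between 0.863 and 0.977. At an unadjusted p under 0.05 there were 3 members, Lat, Cd2 and Cd8a, all lower, where 2.73% of all tested genes were lower and 2.24% higher at that level. The difference rested largely on CAS-1. Without CAS-1 the median of the members was -0.16 and 24 of 30 remained negative (53.2% of all tested genes were), and without CAS-2 the median was -0.68 with 27 negative. In these bulk samples, fewer T and NK cells and less RNA per cell cannot be told apart.

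**Figure D1:**
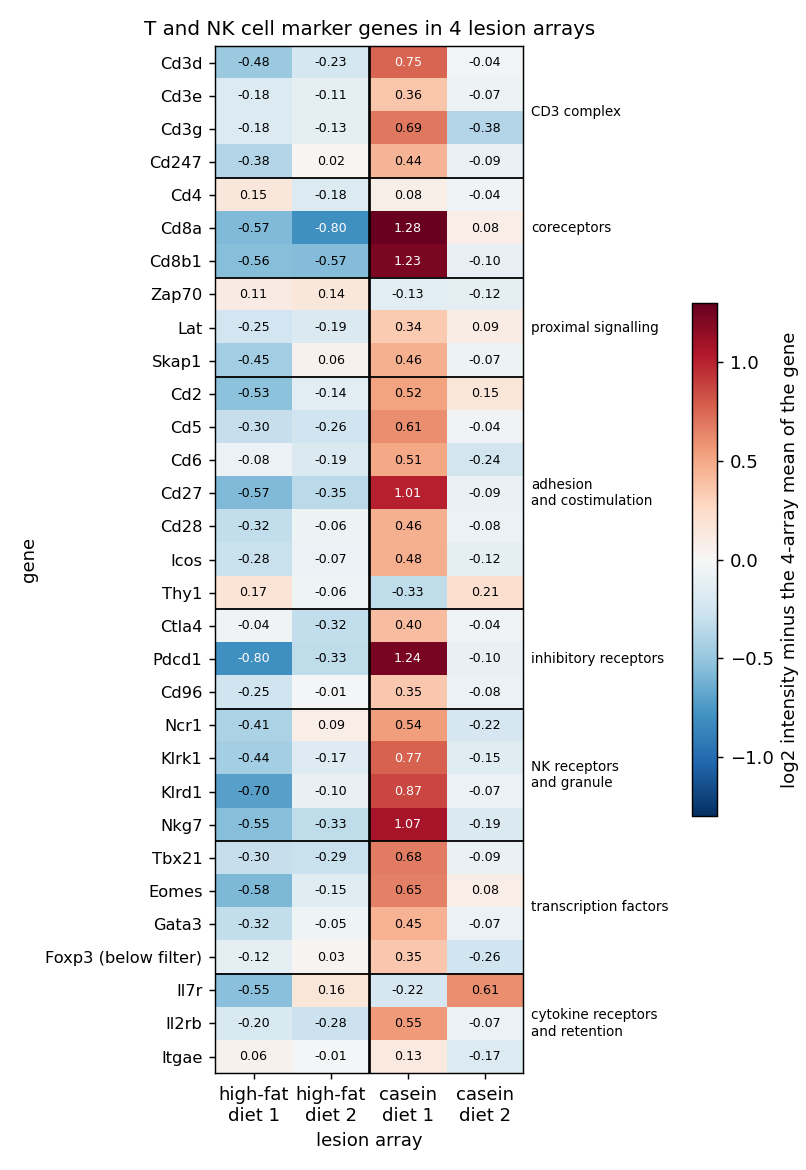
Log2 intensity of each of the 31 T and NK cell marker genes minus its mean over the 4 arrays (colour and printed number), with the high-fat diet arrays left of the casein diet arrays and genes grouped by role. The column of casein diet replicate 1 holds the highest value for 26 of the 30 tested genes, and Zap70, Thy1, Cd4 and Il7r are the tested genes for which it does not.

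The arrays of one diet differed among themselves. CAS-1 had the highest value for 26 of 30 members (33.3% of all tested genes had it highest), and it lay above CAS-2 for 27 (47.9%). HFD-1 had the lowest value for 20 of 30 (29.5%). The mean deviation of the members from their 4-array means was -0.33 in HFD-1 and -0.16 in HFD-2, against 0.54 in CAS-1 and -0.05 in CAS-2. CAS-2 thus lay closer to the high-fat diet arrays than to CAS-1, although it exceeded both of them for 18 members (34% of all tested genes). The size of the diet difference exceeded the gap between CAS-1 and CAS-2 for 5 of 30 members. CAS-1 also had the highest summed intensity of gastric and of intestinal markers. The summed intensity of 9 gastric epithelial markers was 400 and 410 on the high-fat diet, against 65057 in CAS-1 and 9960 in CAS-2, and that of 12 intestinal markers was 259 and 308, against 4730 and 420. The sums rest on part of each list. Gastric Atp4b had 46.6 and 41.5 on the high-fat diet, against 46.5 and 44.4 on the casein diet. Intestinal Cdx1, Cdx2, Cdh17 and Muc2 were below the filter in every array. HFD-1 carried skeletal muscle RNA, with a summed intensity of 12 markers of 34592, against 995 in HFD-2 and 869 and 1088 on the casein diet. The part of these tissues in the lymphocyte values was not tested. Between HFD-2 and CAS-2 alone, 1 array each, the members had a median difference of -0.13 and 19 of 30 were lower on the high-fat diet (50.2% of all tested genes were). The gastric sum still stood at 410 against 9960 in this pair, so tissue content and diet cannot be told apart in it.

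The genes of the CD3 complex all had negative differences, and CAS-1 was highest for each of the 4. Cd3d, the CD3 delta chain, had intensities of 235 and 280.4 on the high-fat diet, against 553 and 319 on the casein diet. Its groups did not overlap, and the difference was -0.71 (SE 0.31, n = 2 each, limma's adjusted p = 0.863), or -0.32 without CAS-1. Cd3e, the epsilon chain needed for assembly of the receptor, had 86.7 and 90.9 on the high-fat diet, against 126 and 93.6 on the casein diet. CAS-2 exceeded the high-fat diet arrays only slightly, and the difference of -0.29 (SE 0.18) was -0.08 without CAS-1. Cd3g, the gamma chain, had 204 and 212 on the high-fat diet, against 374 and 178 on the casein diet, so that CAS-2 was the lowest array and the groups overlapped. Its difference of -0.31 (SE 0.40) was 0.23 without CAS-1. Cd247, the zeta chain, had 77.6 and 102 on the high-fat diet, against 137 and 94.9 on the casein diet, and the groups overlapped as well. Its difference was -0.36 (SE 0.26), or -0.09 without CAS-1. The median of the 4 genes was -0.33, against -0.08 without CAS-1.

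Among the coreceptors, both CD8 chains differed by more than 2-fold, while Cd4 had the smallest difference in size of all tested members. Cd8a, the alpha chain, which also forms a homodimer on some intestinal lymphocytes and dendritic cells, had 54.4 and 46.3 on the high-fat diet, against 196 and 85.5 on the casein diet. The groups did not overlap, and the difference of -1.37 (SE 0.45, unadjusted p = 0.0414, adjusted p = 0.863 in limma) was -0.77 without CAS-1. Cd8b1, the beta chain of conventional cytotoxic T cells, had 76.8 and 76.4 on the high-fat diet, against 265 and 105 on the casein diet. Again the groups did not overlap, with a difference of -1.12 (SE 0.49), or -0.46 without CAS-1. Cd4, the helper coreceptor, had 91.9 and 73.4 on the high-fat diet, against 87.6 and 80.5 on the casein diet. Both casein diet values lay between the high-fat diet values, and the difference was -0.03 (SE 0.15, 95% interval -0.47 to 0.40). Set against Cd4 within each array, the log2 ratio of Cd8a differed by -1.34 between diets (high-fat minus casein) and that of Cd8b1 by -1.09, or by -0.80 and -0.49 without CAS-1. With 2 arrays against 2, the exact two-sided permutation p was 0.333 for both of these 2 relations, also after Benjamini-Hochberg adjustment, and it is the smallest this design can give. The pair of ratios was chosen after the values were seen.

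Cd8a was read by 5 probe sets, and in each of them both high-fat diet arrays lay below both casein diet arrays. Their differences ran from -1.63 to -0.57, and 4 of the 5 reached the intensity filter. Zap70, the kinase that binds the phosphorylated CD3 chains, was read by 3 probe sets that disagreed. The brightest had 239.5 and 245 on the high-fat diet, against 202 and 204 on the casein diet, a difference of 0.25 (SE 0.09, unadjusted p = 0.0501, adjusted p = 0.863 in limma). It was the only member whose high-fat diet arrays both lay above the casein diet. The other probe sets of Zap70 had 66.2 and 72.9 on the high-fat diet, against 132 and 79.8 on the casein diet (-0.57), and 71.9 and 76.9, against 104 and 81.8 (-0.31). The direction of Zap70 therefore cannot be given from these arrays. Over all members, 11 genes had more than 1 probe set, and 10 of the 12 further probe sets above the filter had the sign of the brightest. The exceptions were those of Zap70.

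**Figure D2:**
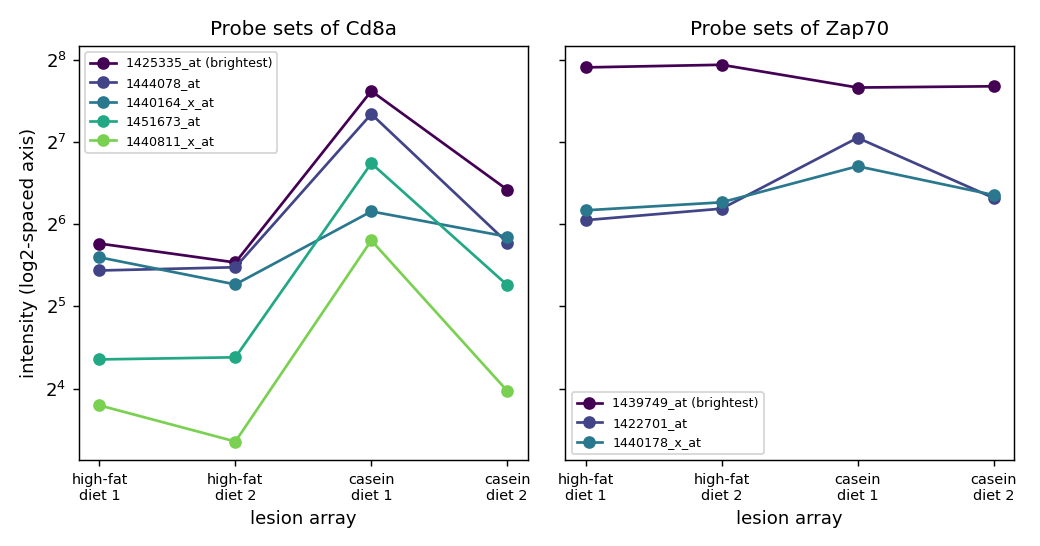
Intensity of each probe set of Cd8a (left) and Zap70 (right) on a log2-spaced axis, in the high-fat diet and then the casein diet arrays, with a line joining the values of 1 probe set. All 5 probe sets of Cd8a are lower in both high-fat diet arrays, whereas the brightest of the 3 probe sets of Zap70 runs against the other two.

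The adaptors showed smaller differences. Lat, the membrane scaffold phosphorylated by Zap70, had 162 and 169.8 on the high-fat diet, against 245 and 206 on the casein diet. Its arrays did not overlap by diet, and it had the smallest p of all members (difference -0.44, SE 0.13, unadjusted p = 0.0296, adjusted p = 0.863 in limma). Without CAS-1 the difference of Lat was -0.31. Skap1, an adaptor that links the receptor to integrin adhesion, had 44.8 and 63.6 on the high-fat diet, against 83.8 and 58.2 on the casein diet, and overlapped (-0.39, SE 0.28).

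Of the 7 adhesion and costimulation genes, 6 had negative differences (51.4% of all tested genes did). Both high-fat diet arrays lay below both casein diet arrays for 3 of the 7 (19.3% of all tested genes). Cd2, the receptor for CD48 in the mouse, had 109 and 142 on the high-fat diet, against 225 and 175 on the casein diet. Both casein diet arrays were high, and the difference of -0.68 (SE 0.21, unadjusted p = 0.0360, adjusted p = 0.863 in limma) was -0.49 without CAS-1 and -0.48 without HFD-1. Cd27, a costimulatory receptor of naive and memory T cells, had 34.2 and 39.8 on the high-fat diet, against 103 and 47.8 on the casein diet. Its value in CAS-1 stood apart from the other arrays, and the difference of -0.93 (SE 0.42) was -0.38 without it. Cd5, an inhibitory modulator of receptor signalling that is also found on B-1 cells, had 70.9 and 73.2 on the high-fat diet, against 133 and 85.1 on the casein diet (-0.56, SE 0.25, or -0.24 without CAS-1). Cd6, Cd28 and Icos overlapped between diets, with differences of -0.27, -0.38 and -0.36, and CAS-1 was the highest array for each. Thy1 had 881 and 749.5 on the high-fat diet, against 620.5 and 906 on the casein diet. CAS-1 was its lowest array, and the difference was 0.12 (SE 0.23).

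The inhibitory receptors were lower in mean on the high-fat diet in all 3 cases. Pdcd1, which encodes PD-1, a receptor of activated and exhausted T cells, had 59.0 and 81.6 on the high-fat diet, against 242 and 95.9 on the casein diet. The groups did not overlap, and the difference of -1.13 (SE 0.52) had the widest error of all members and was -0.47 without CAS-1. Ctla4, the competitor of CD28 for its ligands, had 111 and 91.2 on the high-fat diet, against 150.4 and 111 on the casein diet, so HFD-1 and CAS-2 were alike to the digits given (-0.36, SE 0.21). Cd96, a receptor of T and NK cells for nectins, overlapped with a difference of -0.27 (SE 0.20). Together with Cd8a and Cd8b1, Pdcd1 was 1 of the 3 members that differed by more than 2-fold, where 1.95% of all tested genes were lower by that much.

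NK cell genes had negative differences in all 4 tested cases, with a median of -0.71, or -0.20 without CAS-1. Nkg7, a granule protein of cytotoxic lymphocytes, had 194 and 228 on the high-fat diet, against 600.2 and 250.1 on the casein diet. HFD-2 and CAS-2 lay close together, and the difference of -0.88 (SE 0.47) was -0.25 without CAS-1. Klrd1, the CD94 chain of the NKG2 receptors, had 281 and 428 on the high-fat diet, against 834 and 435 on the casein diet (-0.80, SE 0.41, or -0.33 without CAS-1). Klrk1 had 150.1 and 181 on the high-fat diet, against 347 and 183 on the casein diet (-0.61, SE 0.36, or -0.15 without CAS-1). For both genes the diets were separated by a gap between HFD-2 and CAS-2 far narrower than that between CAS-1 and CAS-2. Ncr1, which in the mouse is largely limited to NK cells and some innate lymphoid cells, had 38.2 and 53.9 on the high-fat diet, against 74.0 and 43.8 on the casein diet. The groups overlapped, and its difference of -0.33 (SE 0.34) was 0.052 without CAS-1.

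The 3 tested transcription factors had negative differences and were highest in CAS-1. Eomes, which acts in NK cells and memory CD8 T cells, had 74.5 and 100.3 on the high-fat diet, against 175 and 118 on the casein diet. The groups did not overlap (-0.74, SE 0.27, or -0.45 without CAS-1), and its second probe set differed by -0.65. Tbx21, which encodes T-bet, the regulator of type 1 responses, had 68.3 and 68.7 on the high-fat diet, against 134 and 79.2 on the casein diet (-0.59, SE 0.29, or -0.21 without CAS-1). Gata3, the regulator of type 2 helper cells, overlapped with a difference of -0.38 (SE 0.23). Foxp3 was listed at 19.1 and 21.3 on the high-fat diet and at 26.6 and 17.4 on the casein diet, below the filter in every array, so no difference in it could be tested.

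The cytokine receptors and the integrin gene did not move alike. Il2rb, the beta chain of the receptors for IL-2 and IL-15, had 131 and 124 on the high-fat diet, against 220.3 and 143 on the casein diet, without overlap (-0.48, SE 0.24, or -0.17 without CAS-1). Il7r had 285 and 464 on the high-fat diet, against 357 and 634 on the casein diet. CAS-2 was its highest array and CAS-1 lay between the high-fat diet values, and the difference was -0.39 (SE 0.40). Itgae, the CD103 integrin chain that holds lymphocytes in epithelia, had 76.3 and 72.8 on the high-fat diet, against 80.0 and 65.0 on the casein diet. Its difference was 0.05 (SE 0.14, 95% interval -0.36 to 0.45).

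**Figure D3:**
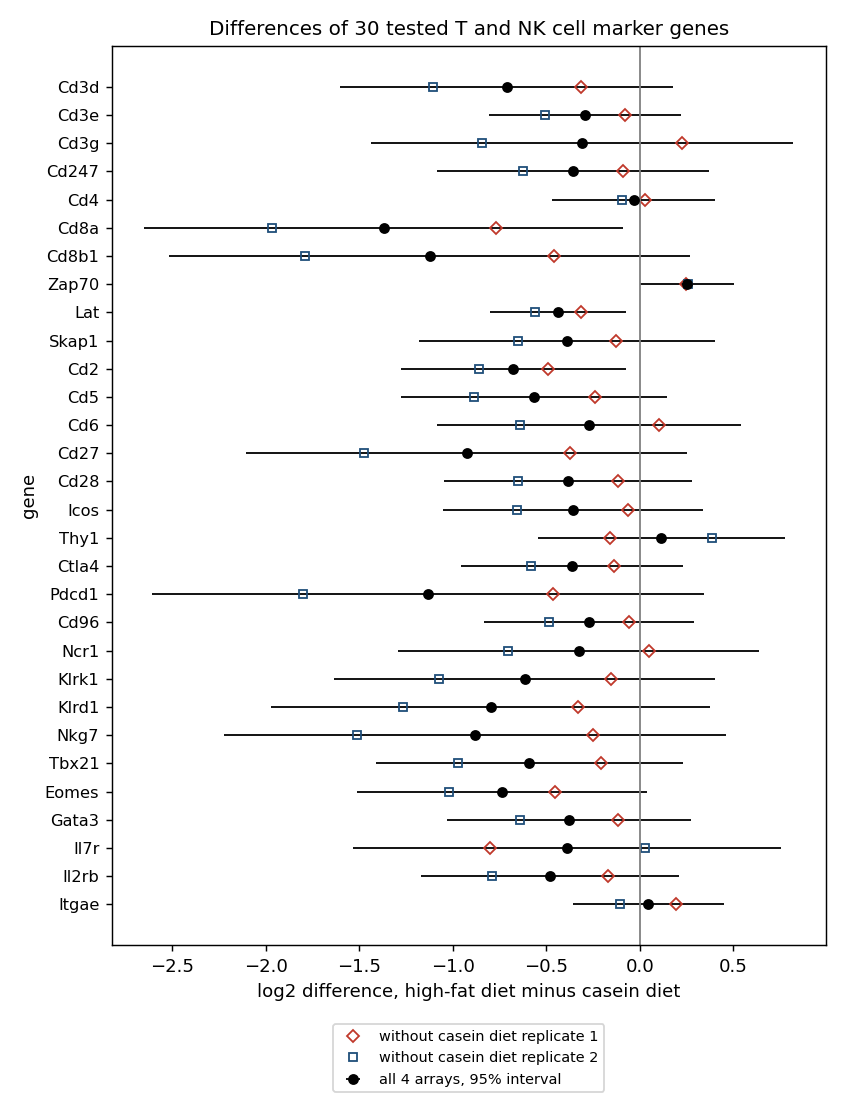
Log2 difference (high-fat diet minus casein diet) of the 30 tested T and NK cell marker genes with limma's 95% interval over all 4 arrays (filled circles), without casein diet replicate 1 (diamonds) and without casein diet replicate 2 (squares). Leaving out casein diet replicate 1 moves most genes toward 0, to between -0.15 and -0.77 for the 12 genes whose diets did not overlap and whose difference was at least 0.5.

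Other genes of the same cells, listed by function, were also mostly highest in CAS-1, namely 18 of 23 tested genes of T cell receptor signalling, 8 of 10 effector products, 8 of 11 trafficking genes and 22 of 27 further T and NK cell genes (33.3% of all tested genes). In T cell receptor signalling 19 of 23 had negative differences (51.4% of all tested genes) with a median of -0.16 (-0.04 without CAS-1). At an unadjusted p under 0.05 in limma 2 of the 23 were lower (2.73% of all tested genes). Ptpn22, a phosphatase that restrains receptor signalling, had 244 and 258 on the high-fat diet, against 393 and 350.1 on the casein diet. Its difference of -0.56 (SE 0.11, adjusted p = 0.863 in limma) was -0.48 without CAS-1, so both casein diet samples were high. Trat1, a partner of the receptor complex, had 26.7 and 27.5 on the high-fat diet, against 61.1 and 39.2 on the casein diet (-0.85, SE 0.25). Both high-fat diet values lay below the filter. Trat1 was thus tested only through the casein diet, and its place in this count was favoured by the filter. Of 10 cytotoxic and effector products, 8 were negative with a median of -0.70, or -0.22 without CAS-1. The granzyme genes Gzmk and Gzma differed by -1.17 (SE 0.45) and -0.76 (SE 0.29), and the chemokine gene Ccl5 by -0.78 (SE 0.42). Without CAS-1 these values were -0.61, -0.37 and -0.33. The other tested granzyme genes had positive differences, 0.32 (SE 0.37) for Gzmb, whose diets overlapped, and 0.12 (SE 0.09) for Gzmm, whose diets did not. Of 27 further T and NK cell genes, 23 were negative with a median of -0.36, or -0.11 without CAS-1. Among them Stat4, the transducer of IL-12 signals, differed by -0.88 (SE 0.30) and Tox by -0.80 (SE 0.32). In the trafficking list 8 of 11 were negative with a median of -0.15, or -0.31 without CAS-2. Ccr7, the lymph node homing receptor of naive and memory T cells and migrating dendritic cells, had 70.6 and 62.0 on the high-fat diet, against 179 and 135 on the casein diet, and kept a difference of -1.03 without CAS-1. Itga4 and Itgal differed by -0.31 (SE 0.12) and -0.41 (SE 0.19). None of these genes passed after adjustment over all genes. Of 11 T cell receptor chain symbols looked up, only Trbv13-2 had a probe set of its own, and it was below the filter in every array.

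Lists of other cells varied in their order of arrays. The 14 tested genes expressed across leukocytes had a median difference of -0.08, or -0.0069 without CAS-1. Of these 14 genes, 11 had negative differences (51.4% of all tested genes did), and CAS-1 was highest for 8 (33.3%). Their summed intensities were 19479 and 18113 on the high-fat diet, against 20971 and 19696 on the casein diet. Among them Cd37 and Itgb2 differed by -0.34 (SE 0.09) and -0.39 (SE 0.17). Dendritic cell markers were nearer to the T and NK cell genes, with 10 of 11 negative, a median of -0.29 (-0.13 without CAS-1, -0.12 without HFD-2, -0.47 without CAS-2) and Clec10a at -0.94 (SE 0.28). Of 14 macrophage markers 12 had positive differences, with a median of 0.21, or 0.0091 without HFD-1 and 0.067 without CAS-2. The scavenger receptor gene Cd163 had the smallest p of these and went the other way, with 24.0 and 23.8 on the high-fat diet, against 47.2 and 52.5 on the casein diet (-1.06, SE 0.10). Its high-fat diet values lay below the filter, so it was tested only through the casein diet. Mertk, a receptor for apoptotic cells, differed by 0.30 (SE 0.09). Of 8 tested B and plasma cell markers 7 had positive differences, with a median of 0.33, or 0.13 without HFD-2 and 0.52 without CAS-2, and Ebf1 and Blk differed by 0.76 (SE 0.23) and 0.38 (SE 0.13). Ebf1 is also expressed in stromal and fat precursors, and Cd79a and Pax5 were below the filter. The exception was Ms4a1, at -0.47 (SE 0.29), or -0.10 without HFD-1, with both high-fat diet arrays below both casein diet arrays. Cd79b and Ighm differed little, by 0.08 (SE 0.19) and 0.06 (SE 0.12). Of 5 tested lymphoid stroma genes 4 were negative (median -0.31), of 12 endometrial epithelial markers 11 (median -0.73), of 7 gastric markers 7 (median -5.89), of 4 intestinal markers 4 (median -2.68) and of 6 exocrine pancreas markers 5 (median -0.04). All 8 endothelial markers (median 0.55) and all 11 tested skeletal muscle markers (median 3.01) had positive differences. Some muscle genes reached the filter only through HFD-1, such as Myh4 (1864, against 14.7 in HFD-2 and 10.5 in both casein diet arrays). The sign of such muscle genes was fixed in advance as well. CAS-1, with the highest gastric and intestinal sums, was also highest for 8 of the 12 endometrial epithelial markers (33.3% of all tested genes). Among the others, Ltf and Sprr2f were highest in CAS-2 and overlapped between diets, and Msx1 differed by 0.69 (SE 0.98). The part of gut tissue in the endometrial epithelial values was not tested. Without CAS-1 the medians were -0.11, -0.46, -3.81 and -0.81 for the lymphoid stroma, endometrial epithelial, gastric and intestinal lists and 0.27 for the endothelial list. Without HFD-1 the median was 0.043 for skeletal muscle, -0.086 for lymphoid stroma and 0.041 for the exocrine pancreas. Endometrial stroma markers, the defining genes of the labelled tissue, were measured in all arrays. Of the 12, 7 had positive differences, with a median of 0.33, or -0.0069 without CAS-1. The receptor gene Pdgfra had 3165 and 2815 on the high-fat diet, against 1709.8 and 2242 on the casein diet (0.61, SE 0.18). It was higher on both high-fat diet arrays, whereas Pgr, the progesterone receptor gene, had 2032 and 2068 on the high-fat diet, against 2761 and 2600.2 on the casein diet. The summed intensities of the 12 markers were 15577 and 16485 on the high-fat diet, against 12690 and 15804 on the casein diet. In CAS-1 the mean deviations of the stroma and endothelial lists were -0.41 and -0.49, opposite to the 0.54 of the T and NK cell genes. No difference between these lists was tested.

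**Figure D4:**
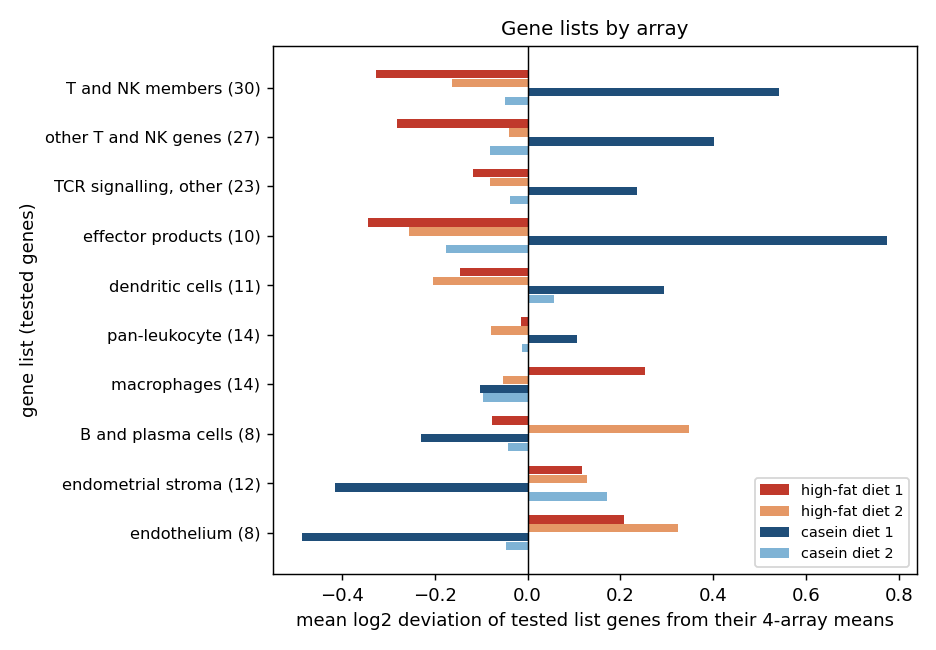
Mean log2 deviation of the tested genes of each list from their own 4-array means (bars), for high-fat diet replicates 1 and 2 and then casein diet replicates 1 and 2, with the number of tested genes in brackets. The T and NK cell lists are highest in casein diet replicate 1, at 0.54 for the members, while pan-leukocyte genes stay near 0 and the stroma and endothelial lists are lowest in that array.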

How the data were processed

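Gene expression was measured in 4 lesion samples on Affymetrix 3′ expression arrays, from 0.1 µg of total RNA per the labels' protocols. The authors deposited linear probe set intensity values that had been normalised across arrays. The tools GCOS and RMA are named in the submitters' processing notes, while their versions and order and the step back to linear values were not given in the sources used here. No detection calls, scan dates or slides were used. Precision is limited by the number of arrays. The labels do not say that replicates came from separate animals, so p-values reflect only the spread between these samples, which may be technical.

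Probe sets were named through the platform annotation, and those with 1 gene symbol were used (34945, against 932 with several and 9160 with none, apart from 64 control probe sets). Log2 was taken with no pseudocount, the brightest probe set of each gene was kept, and a gene was tested if its mean reached the 40th percentile over the non-control probe sets. High-fat diet was compared with casein diet by lmFit and eBayes (limma 3.58.1, R 4.3.3) over all 12797 genes, two-sided, with Benjamini-Hochberg adjustment. The fit was checked on simulated data whose changes were far larger than those of the members, so the check does not cover changes of the members' size. Groups came from the sample titles. Members, role groups and other lists were chosen with earlier results of these data known, and were described without a list test. All members are named. In full are those with non-overlapping diets and a difference of at least 0.5 and a set of defining genes. Of the other lists, genes with the smallest p were named for some, and the brightest for few. The brightest genes of the receptor signalling, further T and NK cell, pan-leukocyte, macrophage, dendritic cell and endometrial stroma lists were Bcl10, Gimap4, Cd52, Lyz2, Irf8 and Esr1. They differed by -0.10, -0.27, -0.28, 0.03, -0.29 and -0.05, in that order. No gene was named by this rule for the lymphoid stroma, epithelial, pancreas, muscle and endothelial lists. The genes given for the epithelial and muscle lists show the filter or the spread within a list. The alternatives tried were a replicate block, other normalisations, filters, probe set choices, a pseudocount, variance priors, array weights, a threshold of 0.10 and leaving out each array. Promoters came from RefSeq (GRCm38.p6). Figures were drawn with matplotlib 3.10.9.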

Additional observations from a re-analysis of the deposited data

How the results depend on the processing

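No member passed limma's test in any alternative that had a test, and 417 of 437 values of single members kept their sign. Over all tested genes 0 passed in each alternative except without casein diet replicate 2, where 17 did, none of them a member (0 to 17 when 1 array was left out). With the replicate number as a block 0 members passed and the median was -0.39. In this balanced layout the block cannot change a gene's difference, nor can another filter or the intensity trend. Part of the 417 kept signs was thus fixed in advance. The correlation of deviations was -0.02 between same-numbered arrays and 0.02 between crossed numbers. With 2 arrays a diet the 2 values mirror each other, so they cannot show whether the replicate numbers mark a pairing. When 1 array was left out, the median ran from -0.68 to -0.16, the count of members with a negative difference from 24 to 28, and that of members with no overlap and lower on the high-fat diet from 17 to 26. Non-overlap is met more readily with 3 arrays, and 31.6% to 38.7% of all tested genes then met it, against 19.3% with 4. With a stricter filter (60th percentile) 17 members were negative, of the 19 left. Leaving out 1 array moved 27 of 30 members by more than 1.5 times or across 0. The sign changed for Cd3g (-0.84 to 0.23), Cd4 (-0.20 to 0.13), Cd6 (-0.64 to 0.10), Ncr1 (-0.71 to 0.052), Thy1 (-0.16 to 0.39), Il7r (-0.80 to 0.026) and Itgae (-0.10 to 0.20). Between HFD-2 and CAS-2 alone, the sign was the opposite for Cd247 (0.11), Cd28 (0.016), Cd3g (0.25), Cd6 (0.048), Cd96 (0.064), Gata3 (0.018), Icos (0.045), Ncr1 (0.30), Skap1 (0.13) and Thy1 (-0.27). With the mean of all probe sets Zap70 differed by -0.21, because its dimmer probe sets run the other way. The causes of the other sign changes were not tested. Foxp3 lay below the filter and could be fitted only without it.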
